A study of Mus musculus with 6 samples.

Results

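Islet hormone genes encode the secreted peptides that define the endocrine cells of the pancreas. The 8 genes Ins1, Ins2, Iapp, Gcg, Sst, Ppy, Pyy and Ghrl were taken by symbol from the platform annotation, and all probe sets listed under them were used. A probe set is a group of short probes that together give 1 value, and 10 of the array's 45037 probe sets other than controls read 7 of these genes, of 18193 genes with a probe set of their own. Iapp had 4, while Ins2, Gcg, Sst, Ppy, Pyy and Ghrl had 1 each. Each of the 10 was listed with 1 gene. The annotation used here lists no probe set under Ins1, which was not analysed here.

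Expression was measured on 6 Affymetrix mouse 3' arrays of total RNA from pancreatic islets isolated from male CD1 mice aged 8 weeks. All islets rested overnight in RPMI medium. The vehicle group (3 arrays) then received 0.1% ethanol and the CMPF group (3 arrays) received 200 uM CMPF, both for 24 hours. CMPF, a circulating metabolite of furan fatty acids, is a furan ring with carboxyl, methyl, propyl and propanoic acid side groups, and the comparison asks how these transcripts differ after exposure to it. CD1 is an outbred strain, and the labels do not say whether the numbered samples came from separate animals, so the p-values reflect how far these samples spread, and that spread may be technical. Whole islets mix several cell types, so fewer cells of a type and less RNA per cell cannot be told apart.

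Beta cells make insulin from the Ins1 and Ins2 transcripts and release it together with amylin, the product of Iapp. Alpha cells make glucagon from Gcg, delta cells make somatostatin from Sst, PP cells make pancreatic polypeptide from Ppy, and rare epsilon cells make ghrelin from Ghrl. Peptide YY, the product of Pyy, belongs to the same family as pancreatic polypeptide, and the 2 genes lie near each other on chromosome 11. Each hormone is made as a precursor that convertases cut in the secretory granule. Transcription of several of these genes depends on homeodomain factors such as Pdx1, which bind sites with a TAAT core, and the Sst promoter is known for its cAMP response element.

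The 150 bases before the annotated start are shown for the 5 measured hormone genes that had such a window and whose probe sets were bright, to show which of the elements just named each holds (RefSeq, GRCm38.p6, strand of the gene, 5' to 3'). Capitals mark TATAA (the core of a TATA box), TAAT and TGACGTCA (the full cAMP response element), searched on both strands, so ATTA and TTATA also count and neighbouring matches can overlap. The windows are chr6:142298275-142298424 on the plus strand for Iapp and, on the minus strand, chr2:62483654-62483803 for Gcg, chr16:23890845-23890994 for Sst, chr11:102101320-102101469 for Ppy and chr11:102107833-102107982 for Pyy. Ins2 had no window, and Ghrl had 4 alternative windows with 0 matches to any of the 3 motifs.
Iapp: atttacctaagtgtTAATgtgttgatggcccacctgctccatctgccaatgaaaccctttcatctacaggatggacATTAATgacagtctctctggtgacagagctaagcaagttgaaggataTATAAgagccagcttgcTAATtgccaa
Gcg: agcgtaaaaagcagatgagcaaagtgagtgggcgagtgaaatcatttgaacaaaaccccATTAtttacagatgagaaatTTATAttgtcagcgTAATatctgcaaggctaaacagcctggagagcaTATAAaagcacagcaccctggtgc
Sst: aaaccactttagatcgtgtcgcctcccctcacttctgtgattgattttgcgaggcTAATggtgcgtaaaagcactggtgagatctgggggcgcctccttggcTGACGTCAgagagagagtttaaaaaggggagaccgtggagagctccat
Ppy: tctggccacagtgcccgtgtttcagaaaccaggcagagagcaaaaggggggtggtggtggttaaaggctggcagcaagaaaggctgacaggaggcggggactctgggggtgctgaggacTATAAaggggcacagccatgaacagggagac
Pyy: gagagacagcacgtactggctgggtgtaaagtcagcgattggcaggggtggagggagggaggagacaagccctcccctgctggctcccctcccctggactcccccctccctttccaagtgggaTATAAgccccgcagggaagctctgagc

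TATAA or its reverse began 27 bases before the start in Iapp and in the Pyy window shown, 24 and 71 in Gcg and 31 in Ppy. A second Pyy window, not shown, starts further downstream and has the same match 83 bases before its start. Its letters were not in the Sst window, whereas 14.2% of 32851 promoter windows of the same length held them. Iapp had 4 TAAT matches, Gcg had 2 and Sst had 1, and 37.8% of all windows held at least 1. TGACGTCA began 48 bases before the start of Sst and was in 1.36% of all windows. A match is a description of the letters and not evidence of binding.

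No hormone probe set passed the test of CMPF against vehicle. Limma with Benjamini-Hochberg adjustment over all 45037 probe sets called 0 of the 10 (adjusted p = 0.99996 for each), and called 0 of all probe sets (0%, smallest adjusted p = 0.99996). At an unadjusted p under 0.05 it again counted 0 of the 10, against 681 of all probe sets (1.51%). The differences, given throughout as CMPF minus vehicle in log2 units, were negative for 7 of the 10, against 48.1% of all probe sets. The 7 include all 4 of Iapp, which are 1 gene. The median of the 10 was -0.02, against 0.0050 over all probe sets. Differences close to 0 changed sign with the scaling of the arrays: Ins2 and Sst were negative with median centring (both -0.019), and Gcg and Ppy positive with a second quantile normalization (0.025 and 0.026). The groups overlapped for all 10 hormone probe sets. Over all probe sets, 3.02% were higher and 2.46% lower without overlap. The largest difference was -0.14, and all 10 of the 95% intervals lay within 0.5 log2 units of 0. Arrays with the same replicate number in both groups resembled each other and are called pairs here. In the same fit with the number as a block, 0 of the 10 passed (0%, smallest adjusted p = 0.984), and 0 had an unadjusted p under 0.05, against 1689 of all probe sets (3.75%).

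**Figure D1:**
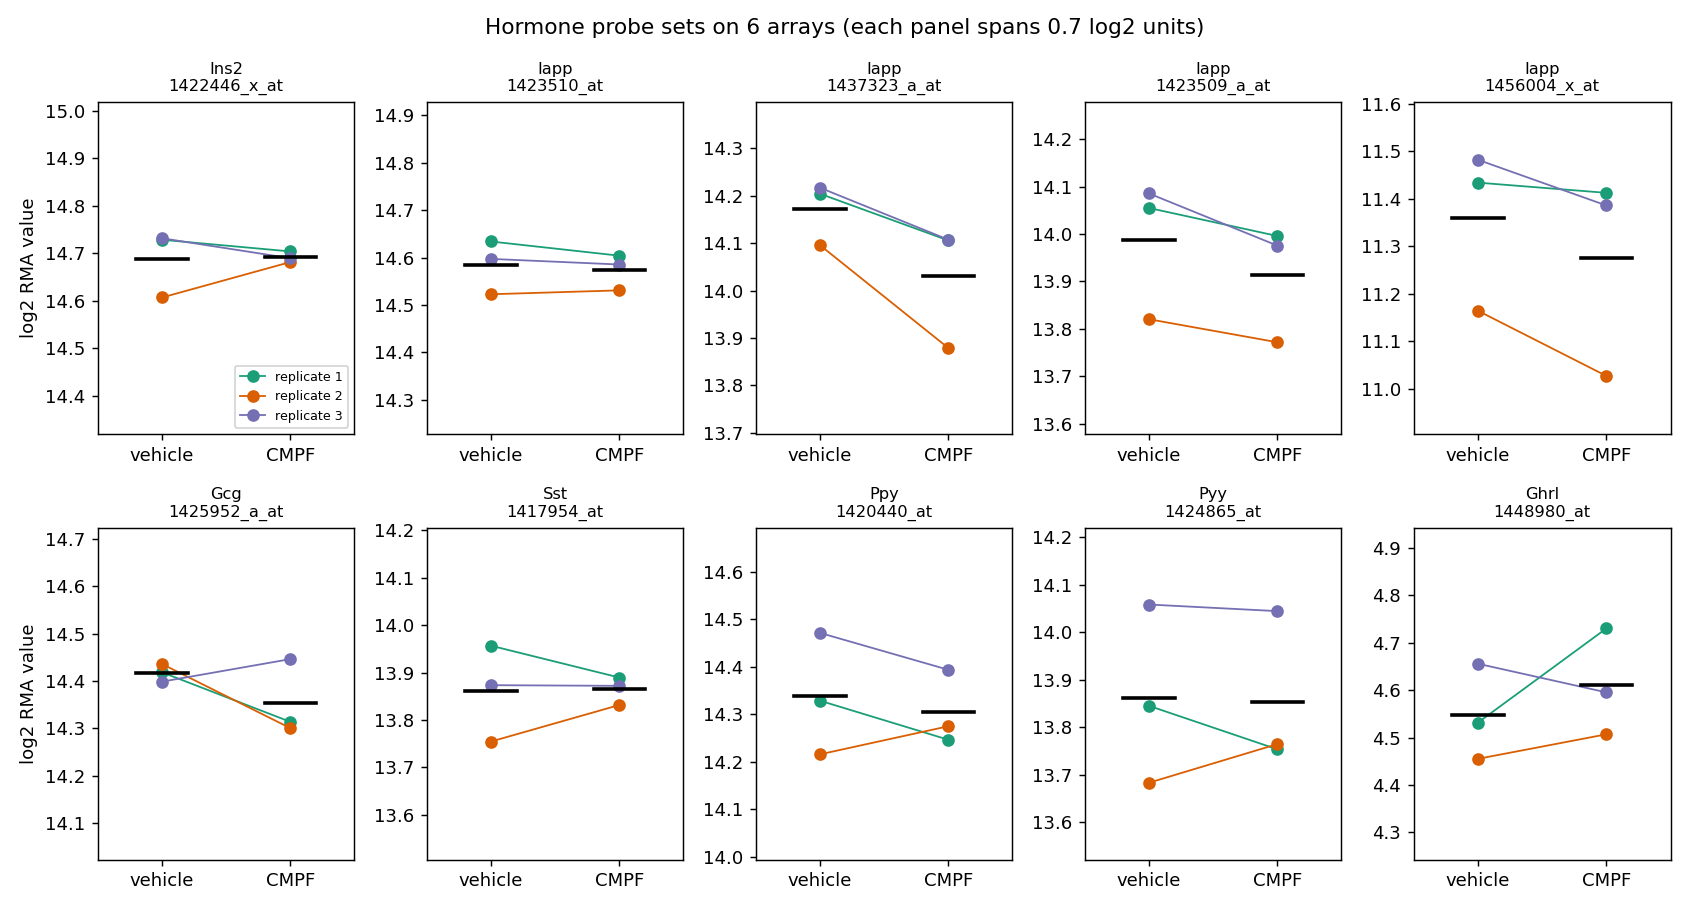
Log2 RMA value (vertical axis, 0.7 log2 units in each panel) of each hormone probe set with vehicle and with CMPF. Points of 1 colour joined by a line are the 2 arrays of 1 replicate number and black bars are group means of 3 arrays. The groups overlap in all 10 panels, and the line slopes down in all 3 pairs for Iapp 1437323_a_at, 1423509_a_at and 1456004_x_at.

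Most hormone signals sat at the top of the array's scale. The highest probe set mean over the 6 arrays was 14.69, that of Ins2. Of the 10 hormone probe sets, 8 lay within 1 log2 unit of it, as did 22 other probe sets, among them 5 that the annotation does not name. Of these 5, 1 had the second highest mean of all, 14.67. The exceptions were Iapp 1456004_x_at, with a mean of 11.32, and Ghrl, with a mean of 4.58, below the median of all probe sets (5.11). The values carry no flag for saturation. RMA, the method that made the values, also brings all arrays to 1 distribution, which leaves the brightest probe sets little room to differ. The highest value of each array lay between 14.61 and 14.73. A small difference near the top may therefore understate a change in RNA, and whether it does was not tested. The moderated standard errors also draw on the spread of all probe sets.

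Ins2, which encodes insulin II, read 14.73, 14.61 and 14.73 on vehicle arrays 1, 2 and 3. It read 14.70, 14.68 and 14.69 on CMPF arrays 1, 2 and 3. Vehicle 2 was the lowest of the 6 and the other vehicle arrays were the highest, with the CMPF arrays between them. The difference was 0.0027 (SE 0.087), with an interval from -0.20 to 0.20, or from -12.9% to 15.2% on the linear scale. At the top of the scale this interval describes the array value and does not bound the change in RNA. This probe set carries the suffix x, which in Affymetrix naming marks probes that can match other transcripts, and whether it also read the closely related Ins1 was not tested.

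Iapp is the hormone gene that could be read at several brightness levels. The brightest of its probe sets, 1423510_at, read 14.63, 14.52 and 14.60 with vehicle and 14.60, 14.53 and 14.59 with CMPF, a difference of -0.01 (SE 0.086). Pair 2 was slightly higher with CMPF and the other pairs slightly lower. The next, 1437323_a_at, read 14.20, 14.10 and 14.22 with vehicle and 14.11, 13.88 and 14.11 with CMPF. It had the largest difference of the 10, -0.14 (SE 0.102), with an interval from -0.38 to 0.09 and an unadjusted p of 0.203 from the limma fit. The lowest vehicle array lay below the 2 higher CMPF arrays, so the groups overlapped.

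The third Iapp probe set, 1423509_a_at, read 14.05, 13.82 and 14.09 with vehicle and 14.00, 13.77 and 13.98 with CMPF, a difference of -0.07 (SE 0.113). The dimmest, 1456004_x_at, read 11.43, 11.16 and 11.48 with vehicle and 11.41, 11.03 and 11.39 with CMPF, a difference of -0.08 (SE 0.140). On this probe set the number 2 arrays stood clearly below the other arrays in both groups. The 3 dimmer probe sets were lower with CMPF in all 3 pairs, as were 11.0% of all probe sets and 26.7% of the 30 near the top of the scale. Of the 22 near the top that are not listed under a hormone gene, 6 were. Their pair differences were -0.10, -0.22 and -0.11 for 1437323_a_at, -0.06, -0.05 and -0.11 for 1423509_a_at, and -0.02, -0.14 and -0.10 for 1456004_x_at. These probe sets are listed under 1 gene, were read in the same RNA and are not replicates of each other, and none of the 3 differences passed the test. The dimmest carries the suffix x, as the Ins2 probe set does, and whether it also read other transcripts was not tested. Without the CMPF 2 array the difference of 1456004_x_at was 0.039, the opposite direction, and that of 1437323_a_at and 1423509_a_at stayed negative without any 1 array.

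**Figure D2:**
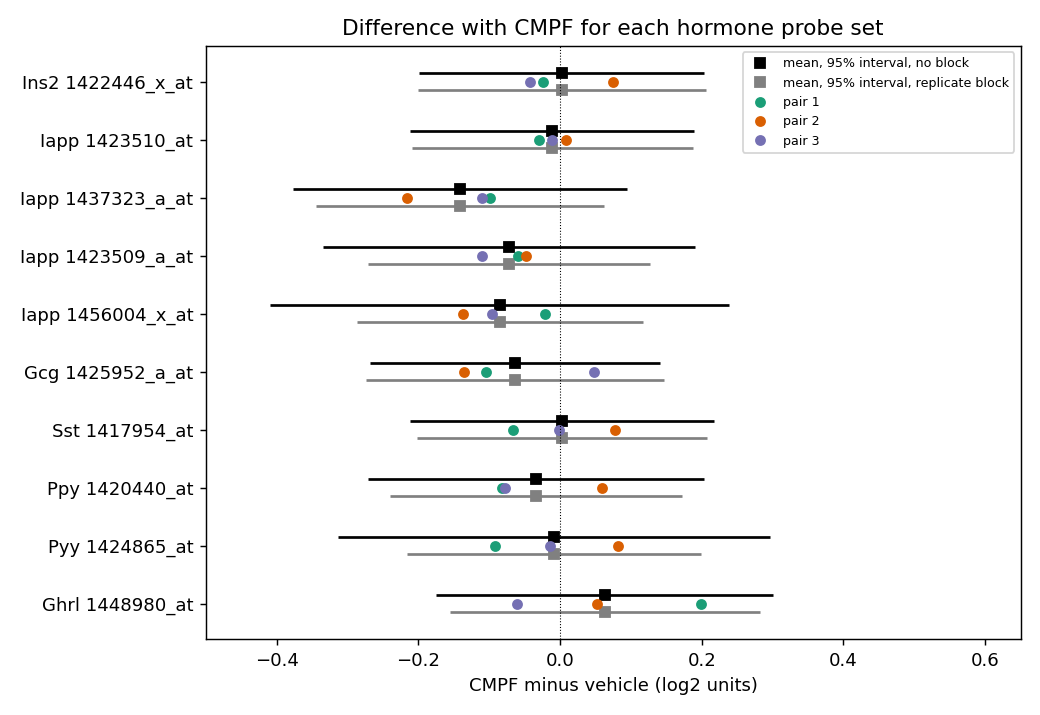
Difference between CMPF and vehicle in log2 units (horizontal axis) for each hormone probe set. Black and grey squares with bars are the mean and its 95% interval without and with the replicate block, and coloured points are the 3 pairs. All 10 intervals cross 0 in both fits, and Iapp 1437323_a_at has the largest difference (-0.14).

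Within each array, the dimmer Iapp probe sets were set against the brightest. The brightest spread less over the arrays than the others, so a difference between arrays that all 4 share is not fully removed. The 1437323_a_at value minus the 1423510_at value was -0.43, -0.43 and -0.38 on the vehicle arrays, against -0.50, -0.65 and -0.48 on the CMPF arrays. The groups did not overlap here, and the change was -0.13 (exact permutation test over 6 arrays, two-sided, p = 0.1, the smallest that 3 against 3 allows). Adjusted over the 3 comparisons made, this exact p was 0.3. For 1423509_a_at the change was -0.06 (exact permutation p = 0.4) and for 1456004_x_at it was -0.07 (exact permutation p = 0.7). The last was lower in 2 of 3 pairs. With the second brightest probe set as reference, the changes of these latter probe sets were 0.07 and 0.06, the opposite direction. The dimmer probe sets therefore gave no difference from the brightest that passed the exact test, which cannot reach 0.05 with 3 arrays against 3.

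The 4 Iapp probe sets differed in how far they spread over the arrays. The range over the 6 arrays was 0.111 log2 units for the brightest, 0.338 and 0.314 for the middle probe sets and 0.456 for the dimmest, which is 4.10 times the range of the brightest. All 4 were lowest on an array numbered 2. Among the hormone probe sets near the top, the range was 0.125 for Ins2, 0.146 for Gcg, 0.202 for Sst, 0.256 for Ppy and 0.376 for Pyy. The median range was 0.224 for the 30 probe sets near the top and 0.385 for all probe sets.

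**Figure D3:**
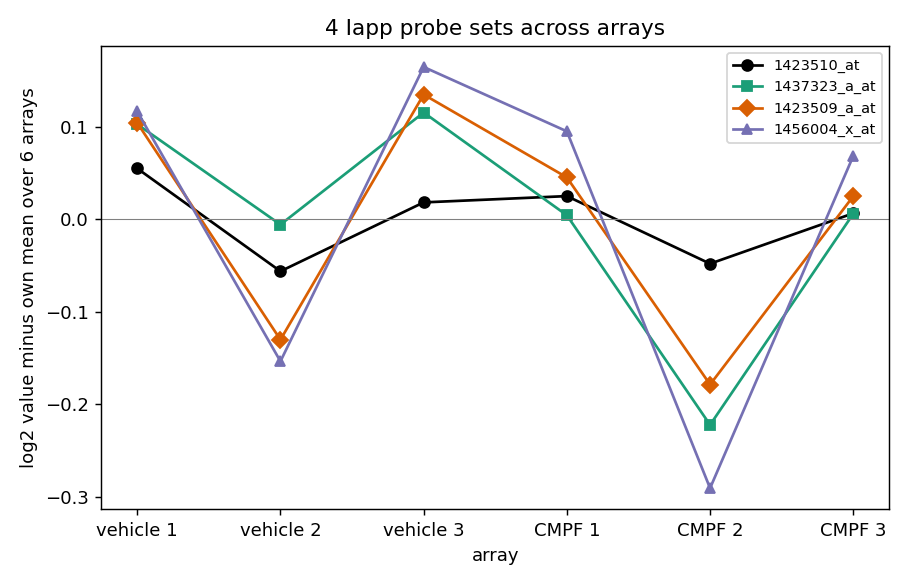
Log2 value of each of the 4 Iapp probe sets minus its own mean over the 6 arrays (vertical axis), for each array (horizontal axis). The brightest probe set, 1423510_at, spans 0.111 log2 units and the dimmest, 1456004_x_at, spans 0.456, with both number 2 arrays below the mean in all 4.

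Gcg, which encodes glucagon and the glucagon-like peptides, read 14.42, 14.44 and 14.40 with vehicle and 14.31, 14.30 and 14.45 with CMPF. CMPF arrays 1 and 2 lay below all vehicle arrays and CMPF 3 above them. The difference was -0.06 (SE 0.089), with an interval from -0.27 to 0.14. The vehicle arrays were closer together (SD 0.019, n = 3) than the CMPF arrays (SD 0.080, n = 3), and the difference of spreads was not tested. With a second quantile normalization the difference was 0.02, the opposite direction.

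Sst, the somatostatin gene, read 13.96, 13.75 and 13.87 with vehicle and 13.89, 13.83 and 13.87 with CMPF. The 3 CMPF values lay inside the vehicle range. The difference was 0.0028 (SE 0.093), with an interval from -0.21 to 0.22, or from -13.6% to 16.2%. Somatostatin restrains the secretion of both insulin and glucagon.

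Ppy, the pancreatic polypeptide gene, read 14.33, 14.22 and 14.47 with vehicle and 14.25, 14.28 and 14.39 with CMPF, a difference of -0.03 (SE 0.103). Its relative Pyy read 13.85, 13.68 and 14.06 with vehicle and 13.75, 13.76 and 14.04 with CMPF, a difference of -0.0080 (SE 0.132). In both genes the number 3 arrays were the highest in their group. In both, pairs 1 and 3 were lower and pair 2 was higher with CMPF: -0.08, 0.06 and -0.08 for Ppy and -0.09, 0.08 and -0.01 for Pyy. Without the replicate block the interval for Pyy, from -0.31 to 0.30, was the widest among the hormone genes with 1 probe set. With the block it ran from -0.22 to 0.20 (SE 0.088), narrower than that of Ghrl (-0.16 to 0.28).

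Ghrl, the ghrelin gene, read 4.53, 4.46 and 4.66 with vehicle and 4.73, 4.51 and 4.60 with CMPF. These values are below the median of all probe sets and carry no detection call, so expression could not be told from no expression. The difference was 0.06 (SE 0.103), higher with CMPF in 2 of 3 pairs.

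The arrays numbered 2 stood low for the hormones in both groups, a pattern chosen for description after its values were seen. The lowest of the 6 values fell on vehicle 2 or CMPF 2 for 10 of 10 hormone probe sets, for 15 of the 22 others near the top and for 42.2% of all probe sets. Vehicle 2 was the lowest vehicle array for 9 of the 10, Gcg being the exception. CMPF 2 was the lowest CMPF array for 8 of the 10, Ppy and Pyy being the exceptions. The same arrays had the highest summed level of 17 measured markers of acinar cells, the enzyme-secreting cells of the exocrine pancreas. On the log2 scale it was 17.25 on vehicle 2 and 17.32 on CMPF 2, and between 15.63 and 16.68 on the other arrays. Of those markers 16 were highest on a number 2 array, and 0 lay below the median of all probe sets. The share of all probe sets that were highest on a number 2 array was not counted. The part of acinar RNA in the hormone values was not tested.

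**Figure D4:**
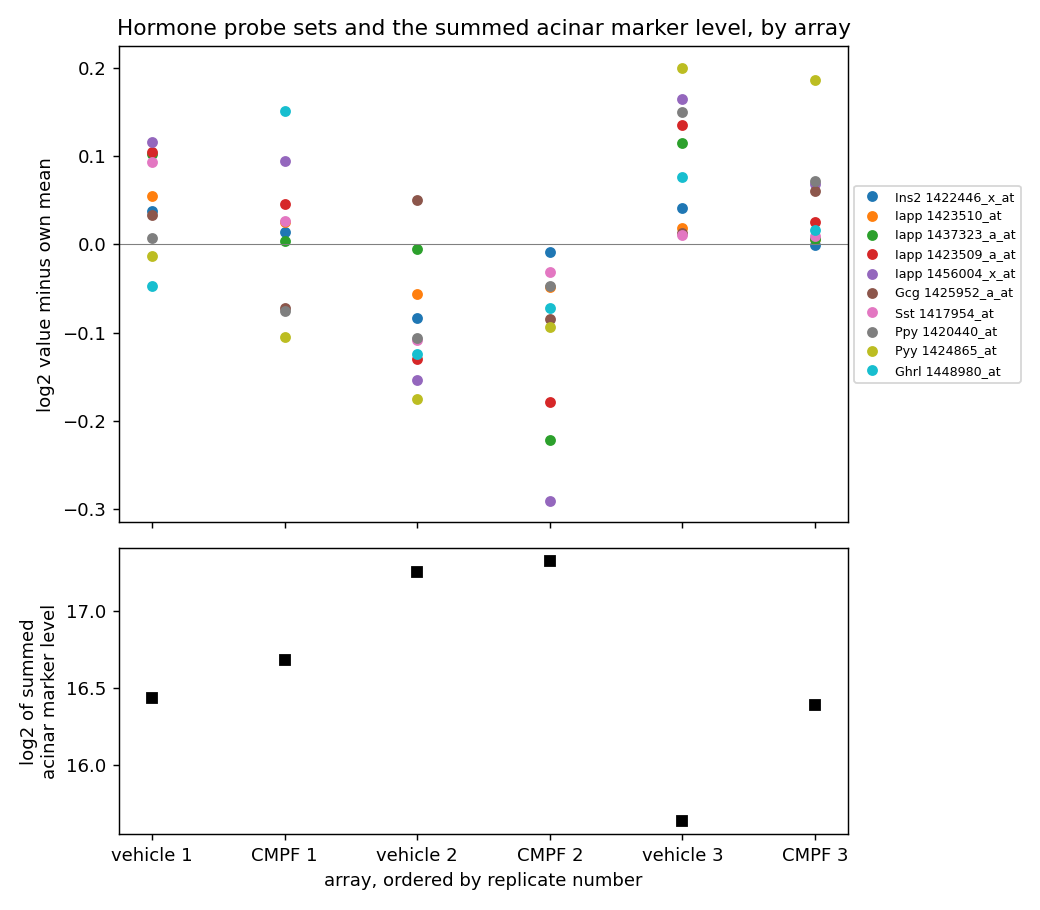
Top, log2 value of each hormone probe set minus its own mean over the 6 arrays; bottom, log2 of the summed level of the acinar markers, both by array in order of replicate number. The hormone points sit mostly below 0 on vehicle 2 and CMPF 2, where the acinar level is highest (17.25 and 17.32).

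Acinar markers also read higher with CMPF: 13 of 17 were higher and 1 lower with CMPF in all 3 pairs, against 12.0% and 11.0% of all probe sets. Their summed level ranged from 15.63 to 17.25 with vehicle and from 16.39 to 17.32 with CMPF. It was higher with CMPF by 0.25, 0.07 and 0.75 in the 3 pairs. Limma called 0 of them with or without the block, and 13 of 17 had an unadjusted p under 0.05 with the block, against 3.75% of all probe sets (0 without it). Most of these markers moved together over the arrays, so the counts of 13 are not counts of separate results. Of the other markers, 8 for duct cells had summed levels from 14.11 to 14.70 with vehicle and from 14.29 to 14.74 with CMPF. Those of 10 markers for stellate cells ran from 13.34 to 13.96 and from 12.95 to 14.23. Those of 10 endothelial markers ran from 9.93 to 10.28 and from 9.79 to 10.48, and those of 10 macrophage markers from 10.76 to 11.42 and from 10.78 to 11.39. The macrophage marker with the highest mean, Cd14, read 10.51 on vehicle 2 and 10.57 on CMPF 2, and between 8.40 and 9.03 on the other arrays. The 3' minus 5' log2 signal of the Gapdh control lay between -0.089 and -0.027 with vehicle and between -0.016 and 0.017 with CMPF, without overlap. For the Actb control it lay between 0.70 and 0.83 with vehicle and between 0.74 and 0.84 with CMPF, and the groups overlapped. The part of these measures in the hormone values was not tested.

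Markers of the islet endocrine cells were set against the median of all probe sets. The 6 measured beta cell markers and the 3 measured alpha cell markers all lay above it, and 2 of 4 delta cell markers lay below it. All 17 acinar, 10 stellate and 10 macrophage markers measured also lay above it, so this level does not tell islet cells from those. Summed beta cell markers other than hormones ranged from 13.60 to 13.88 with vehicle and from 13.45 to 14.00 with CMPF. Alpha cell markers ranged from 13.59 to 13.80 and from 13.49 to 13.67. Delta cell markers ranged from 11.35 to 11.54 and from 11.36 to 11.56. In each of these lists the groups overlapped. By pair, the summed alpha cell level was lower with CMPF in all 3 (-0.13, -0.19 and -0.09), while the summed beta and delta cell levels were higher in some pairs and lower in others. The alpha cell sum mostly follows Ttr, its brightest marker (-0.14, -0.19 and -0.09 in the 3 pairs). Irx2 (-0.15, 0.14 and 0.29) and Slc7a2 (0.05, -0.20 and -0.01) were not lower in all 3.

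Granins store hormones in secretory granules, where convertases and trimming enzymes process the precursors. Of 11 measured granins and processing enzymes, 0 passed limma's test, 5 were lower and 0 higher in all 3 pairs, and 9 had a negative difference. Over all probe sets 11.0% were lower and 12.0% higher in all 3 pairs and 48.1% had a negative difference, and 26.7% of those near the top of the scale were lower in all 3 pairs. Those near the top include Chgb and Scg5 of this list, both lower in all 3 pairs. The other members of the list lie below that level. The list's median was -0.05. Cpe, the carboxypeptidase that trims hormone precursors, averaged 13.74 (SD 0.06, n = 3) in the vehicle group and 13.59 (SD 0.15, n = 3) in the CMPF group. Its difference was -0.14 (SE 0.104). The granin Scg3 differed by -0.13 (SE 0.099), its relative Scg2 by -0.10 (SE 0.109), and Scg5, the chaperone of the convertase PC2, by -0.07 (SE 0.103). Of the 11 genes, 9 were lowest on a number 2 array, against 42.2% of all probe sets.

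Among 13 measured transcription factors of the hormone genes, 0 passed, 1 was lower and 0 higher in all 3 pairs (11.0% and 12.0% of all probe sets), and the median was -0.04. Insm1, a zinc finger factor of endocrine cells, averaged 11.52 (SD 0.14, n = 3) in the vehicle group and 11.09 (SD 0.36, n = 3) in the CMPF group, which is -0.43 (SE 0.179). Its pair differences were -0.46, -0.86 and 0.04. Its limma p was 0.0450 unadjusted and 0.99996 after adjustment. The alpha cell factors Irx1 and Irx2 differed by 0.11 (SE 0.148) and 0.09 (SE 0.129), and Pax4, which lay below the median level, by 0.09 (SE 0.132).

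Of 18 measured receptors for these hormones, 0 passed, 2 were higher and 4 lower in all 3 pairs (12.0% and 11.0% of all probe sets), and the median was 0.04. Npy1r, a receptor for neuropeptide Y and peptide YY, averaged 3.86 (SD 0.11, n = 3) in the vehicle group and 3.58 (SD 0.02, n = 3) in the CMPF group, which is -0.28 (SE 0.094). Calcr, the calcitonin receptor that forms amylin receptors, differed by 0.37 (SE 0.152). Both read below the median of all probe sets, where expression could not be told from none. Their limma p-values were 0.0188 and 0.0426 unadjusted and 0.99996 after adjustment. They were the 2 of 18 receptors with an unadjusted limma p under 0.05, against 1.51% of all probe sets. Ramp3, which pairs with Calcr, differed by 0.25 (SE 0.151) and Sstr4, a somatostatin receptor, by 0.20 (SE 0.139). Of 15 other measured peptide hormone genes 0 passed, 0 were higher and 0 lower in all 3 pairs. Vip, a neuropeptide of islet nerves, differed by -0.42 (SE 0.273), with pair differences of -1.25, -0.52 and 0.52. Sct, the secretin gene, differed by 0.10 (SE 0.106), the opioid precursor Penk by 0.14 (SE 0.175) and Insl5, an insulin-like peptide gene, by -0.06 (SE 0.096).

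The genes whose levels over the 6 arrays were most like a hormone's were listed as a description, over about 8644 genes above the median level. Wdr92 was closest to Ins2 (Pearson r = 0.998), Myo15b to the brightest Iapp probe set (0.995) and 4930533B01Rik to the dimmest (0.997). Calr, an ER chaperone, was also among the 3 closest to the brightest Iapp probe set (0.985). Fbln2 was closest to Gcg (0.994), Axin2 to Sst (0.989), A030001D20Rik to Ppy (0.989), Kdm5b to Pyy (0.994) and Krtap10-4 to Ghrl (0.991). Med20 was among the 3 closest to both Ppy (0.984) and Pyy (0.990). With 6 arrays such values are common: between 88 and 352 genes exceeded 0.9, depending on the hormone probe set. The arrays share pairing and the acinar differences given above.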

How the data were processed

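Per the submitters' processing notes, the authors ran RMA in Affymetrix Expression Console 1.1, and the deposited values are its log2 output. RMA brings all arrays to 1 distribution, which removes differences in total signal, and can shrink differences at low signal. For its settings, the sources used here give nothing. The array medians lay between 5.07 and 5.14. Precision is limited by the number of arrays and, for some probe sets, by a main fit that leaves out the replicate numbers. With the replicate block the SE fell from 0.140 to 0.086 for Iapp 1456004_x_at and from 0.132 to 0.088 for Pyy. For Gcg it was 0.089 in both fits.

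From 45101 probe sets, 64 controls were left out. Of the rest 34945 were listed with 1 gene, 932 with several and 9160 with none. Entrez IDs matched 34741 of those with 1 gene to the RefSeq table (GRCm38.p6). Gene lists used the probe set with the highest mean. A list's summed level is the log2 of its summed linear values, so its brightest members weigh most.

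CMPF and vehicle were compared with lmFit and eBayes of limma 3.58.1 (R 4.3.3). Tests were two-sided, and p-values were adjusted over all 45037 probe sets by Benjamini-Hochberg, with a threshold of 0.05. Deviations from group means had correlations from 0.407 to 0.548 where arrays of the 2 groups shared a number and from -0.469 to 0.0893 elsewhere, so the numbers were taken to pair the arrays, from the data and not the labels. Alternatives were the replicate block, other normalizations, a filter on dim probe sets, 1 probe set per gene, array weights, a variance trend and leaving out arrays. In simulated data for this comparison (45037 probe sets), limma recovered 16% of changes of 0.5 log2 units, 56% of 1 and 100% of 2 or 4, with 10 false calls. The simulated noise held no pairing, and the changed probe sets were drawn at random from all levels. These rates are therefore not rates for the hormone probe sets. Members and lists were chosen with earlier results of these data known. The text names up to 4 genes per pathway list by smallest p, and the closest genes among the 3 with the highest r (SD of at least 0.1).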

Additional observations from a re-analysis of the deposited data

How the results depend on the processing

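The count of probe sets past the threshold was 0 under each setting tried, and none of the hormone probe sets passed under any. The smallest adjusted p of limma was 0.958, without 1 array. Of 208 alternative values, 180 were labelled the same as the main value. For a difference this meant the same direction and side of the threshold. For an Iapp comparison it meant the same direction only, and for a count of probe sets the same count. The replicate block, the variance trend, the filter on dim probe sets and 1 probe set per gene cannot change a difference. Their values are among the 180, so this count does not measure how stable the differences are. The replicate block changed no call and no difference (-0.14 for Iapp 1437323_a_at, -0.08 for Iapp 1456004_x_at, 0.0027 for Ins2); the sign-flip test over pairs cannot go below 0.25 and gave 0.25, 0.25 and 0.5 for the Iapp comparisons.

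Directions of differences near 0 turned with the scaling, and the cause was not tested. With median centring Ins2 read -0.019 and Sst -0.019. With a second quantile normalization Ins2 read -0.0090, Gcg 0.025 and Ppy 0.026, and the brightest Iapp probe set read 0. This normalization gives equal ranks equal values on all arrays. A probe set that keeps its rank therefore reads 0 by construction, whatever its RNA did, and those at the very top have few ranks to move between. With array weights Ins2 read -0.016 and Sst -0.024. With the second brightest Iapp probe set as reference, the changes were 0.069 for 1423509_a_at and 0.057 for 1456004_x_at. Within 0.5 log2 units of the highest mean lay 4 hormone probe sets, not 8.

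Leaving out 1 array, or both arrays of 1 number (chosen after seeing the data), the differences ran from -0.038 to 0.025 for Ins2, -0.042 to 0.013 for Iapp 1423510_at, -0.18 to -0.066 for 1437323_a_at, -0.16 to -0.0012 for 1423509_a_at, -0.18 to 0.039 for 1456004_x_at, -0.12 to -0.028 for Gcg, -0.051 to 0.050 for Sst, -0.095 to 0.033 for Ppy, -0.10 to 0.090 for Pyy and -0.0043 to 0.125 for Ghrl. The change against the brightest Iapp probe set ran from -0.16 to -0.076 for 1437323_a_at, -0.11 to -0.011 for 1423509_a_at and -0.14 to 0.029 for 1456004_x_at. CMPF 2 alone turned 1456004_x_at: without it the difference was 0.039 and the change against the brightest 0.029.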
